A study of Mus musculus with 6 samples.

Results

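The 10 genes described here encode subunits of integrins, most of them receptors for laminin or collagen. They were chosen by name, as every probe whose RefSeq accession belonged to Itga1, Itga2, Itga3, Itga6, Itga7, Itga9, Itga10, Itga11, Itgb4 or Itgb7. All 10 were among the 14345 genes tested, out of 22910 genes on the array. The samples were 2D-MAOs, which are airway epithelial cells from the lung of C57BL/6 mice, grown as organoids and plated flat. In 3 cultures TGF-β1, a secreted growth factor, was added on day 3, while 3 cultures received none and served as controls. Both groups were in medium lacking noggin, an inhibitor of bone morphogenetic proteins, and A83-01, an inhibitor of TGF-β receptors, and all were collected on day 7. The methods describe flat cultures on type I collagen coating and 3 biological replicates, and name no TGF-β1 concentration for the arrays. Each culture was measured on 1 single-dye array, where a spot is the brighter the more RNA its probe has bound. All 7 airway epithelial markers listed (Epcam, Cdh1, Krt8, Krt18, Krt19, Nkx2-1 and Sox2) were well above background on all 6 arrays, so that the label of the cells was borne out by their markers.

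An integrin is a pair of an α and a β subunit that spans the cell membrane, binds matrix outside the cell and links it to the cytoskeleton inside. Subunits α3, α6 and α7 take part in laminin receptors, α6 mostly with β4 in epithelia that form hemidesmosomes, the anchors between keratin filaments and the basement membrane. Subunits α1, α2, α10 and α11 pair with β1 and bind collagens. The remaining pair of genes in the set have other main ligands, since α9 pairs with β1 and binds tenascin C and osteopontin, and β7 pairs with α4 or αE in leukocytes.

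Between 55.0% and 59.0% of probes were well above background on an array, a mark that the scanner software gives to each spot. Log2 signals were normalized by quantiles and the groups compared with limma, a linear model that shares information on the spread across genes. Changes below are log2 signals of TGF-β1-treated minus control cultures. Of the 10 genes, 9 were well above background on all 6 arrays, and Itgb7 was so on 2 of 3 control arrays and on 3 of 3 TGF-β1 arrays. In these bulk cultures, fewer cells of a type and less RNA per cell cannot be told apart.

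All 10 integrin genes had a fitted change above 0, whereas 45.8% of all genes tested did. The sign of 5 of them (Itga1, Itga3, Itga7, Itga10 and Itgb7) turned under at least 1 other setting, and without TGF-β1 replicate 3 the count was 8 of 10. Their median change was 0.53, beside -0.03 over all genes tested. The median was 0.53 for the laminin-binding group (Itga3, Itga6, Itga7 and Itgb4) and 0.54 for the collagen-binding group (Itga1, Itga2, Itga10 and Itga11). Itga2, Itga6, Itga9, Itga11 and Itgb4 were higher on each TGF-β1 array than on each control array, and the other 5 genes overlapped between groups. Of all genes tested, 12.9% were separated upward and 13.5% downward. None of the 10 passed a limma Benjamini-Hochberg adjusted p of 0.05, which 2.04% of all genes did, 1.63% in the upward and 0.404% in the downward direction. With a 2-fold change required as well, the count was also 0 of 10, beside 1.38% of all genes. At an unadjusted limma p under 0.05, the same 5 genes were higher and 0 were lower, beside 11.4% and 10.7% of all genes. By the methods' t-test, an unpaired test without adjustment, 3 of them passed (Itga2, Itga6 and Itgb4), beside 9.09% of all genes higher. The 5 separated genes had changes of 0.79 to 0.93, a size of 0.75 or more that 4.78% of all genes reached upward. With 3 arrays against 3, the smallest two-sided p of an exact permutation test is 0.1, and each of the 5 had that value.

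**Figure D1:**
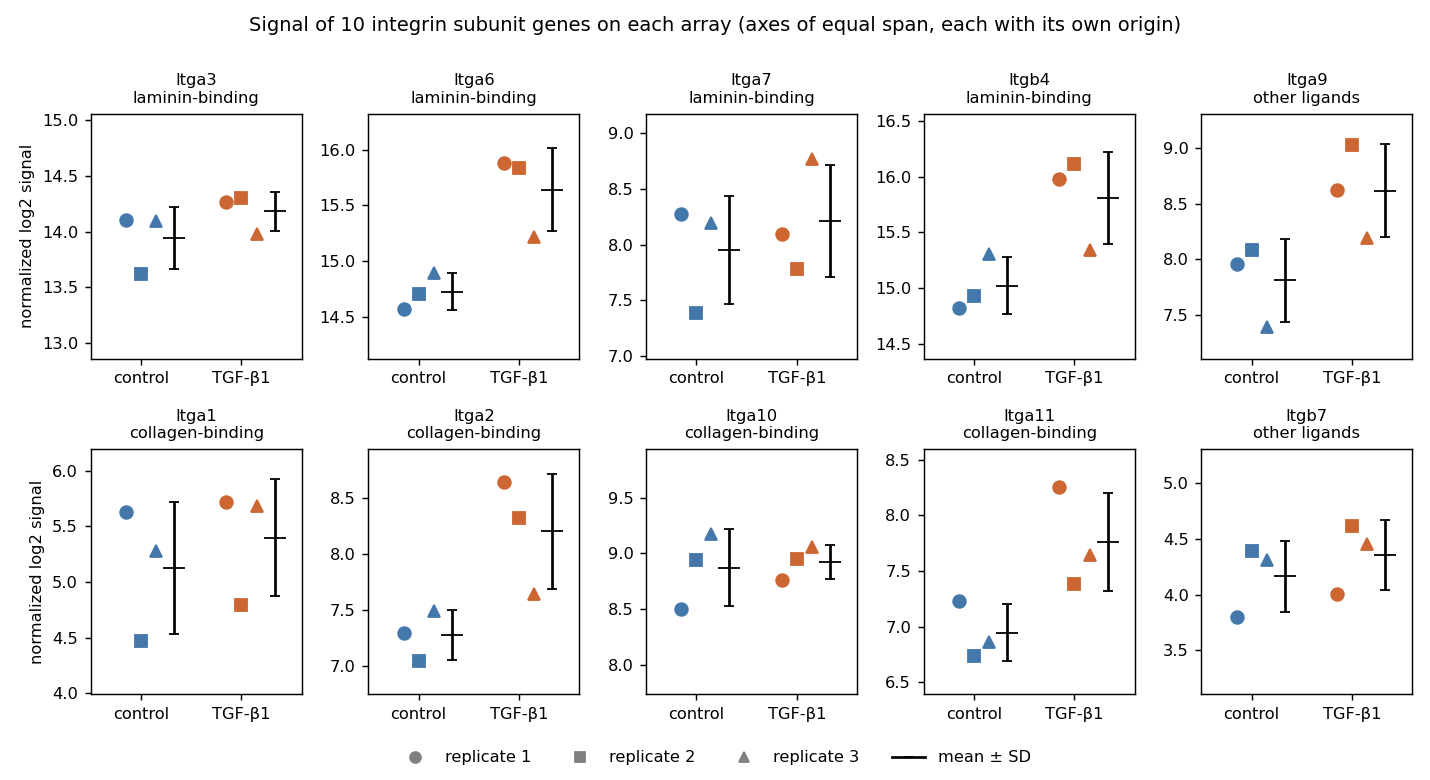
Normalized log2 signal (vertical axis) of the 10 integrin genes on the 3 control and 3 TGF-β1 arrays, one point an array beside the group mean ± SD, on axes of equal span that start at a different level for each gene. The groups are separated for Itga2, Itga6, Itga9, Itga11 and Itgb4, and TGF-β1 replicate 3 is the TGF-β1 array nearest the controls in all of these but Itga11.

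Among the laminin receptors, Itga6 had the lowest limma p of the set. It encodes the α subunit of the hemidesmosomal receptor. Its log2 signal was 14.57, 14.71 and 14.90 on control arrays 1, 2 and 3 and 15.87, 15.83 and 15.21 on TGF-β1 arrays 1, 2 and 3. The lowest TGF-β1 array, replicate 3, lay above the highest control array. The change was 0.92 or 1.89-fold (SE 0.20, 95% interval 0.44 to 1.39, limma adjusted p = 0.0798). The 2 other Itga6 probes were also separated, with changes of 0.94 and 0.53.

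Itgb4 encodes the partner of α6, a β subunit with a long cytoplasmic tail that binds plectin. Its log2 signal was 14.82, 14.93 and 15.31 on the control arrays and 15.98, 16.12 and 15.34 on the TGF-β1 arrays. TGF-β1 replicate 3 exceeded control replicate 3 by only 0.03, so that the separation of the groups rested on a narrow gap. The change was 0.79 or 1.73-fold (SE 0.23, 95% interval 0.23 to 1.35, limma adjusted p = 0.137).

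The difference between Itga6 and Itgb4 on an array was compared next, a pair chosen after their values were seen. With the control mean set to 0, it was 0.05, 0.07 and -0.12 in controls and 0.19, 0.01 and 0.17 after TGF-β1. The groups overlapped, and the mean of 0.12 ± 0.10 (SD, n = 3) after TGF-β1 had a two-sided exact permutation p of 0.3.

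Itga3, the α subunit of the laminin receptor that pairs with β1, had log2 signals of 14.11, 13.62 and 14.10 in controls and 14.26, 14.30 and 13.98 after TGF-β1. The groups overlapped because control replicates 1 and 3 lay above TGF-β1 replicate 3. The change was 0.24 (SE 0.17, 95% interval -0.17 to 0.65, limma adjusted p = 0.427). A second Itga3 probe, also above background on all arrays, had a change of -0.11, so that the sign of Itga3 depended on the probe. On the first probe, the difference between Itga6 and Itga3, also chosen after the values were seen, was -0.32, 0.31 and 0.01 in controls and 0.83, 0.75 and 0.45 after TGF-β1. Here the groups did not overlap, with a mean of 0.67 ± 0.20 (SD, n = 3) and the smallest exact permutation p possible, 0.1.

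Itga7 encodes the laminin-binding α subunit best known from muscle. Its log2 signal was 8.27, 7.39 and 8.19 in controls and 8.09, 7.78 and 8.77 after TGF-β1. The groups overlapped, the spread among controls being wider than the change of 0.26 (95% interval -0.51 to 1.03, limma adjusted p = 0.645). A second Itga7 probe was well above background on 1 control array and 1 TGF-β1 array. Of 6 muscle markers, Myh11 and Des were well above background on no array. Of the 4 tested, Cnn1 rose by 2.13 (limma adjusted p = 0.0231). Tagln had 2.00 (limma adjusted p = 0.0735), Acta2 0.02 and Actc1 -0.19. Their part in the Itga7 value was not tested.

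Among the collagen receptors, Itga2 had the largest fitted change of the 10 genes, close to that of Itga6. It encodes the α subunit of a collagen receptor of epithelial cells and platelets. Its log2 signal was 7.29, 7.04 and 7.49 on the control arrays and 8.65, 8.33 and 7.64 on the TGF-β1 arrays. TGF-β1 replicates 1 and 2 were far above every control, whereas replicate 3 was above the highest control by a small margin. The change was 0.93 or 1.91-fold (SE 0.27, 95% interval 0.30 to 1.57, limma adjusted p = 0.13).

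Itga11 encodes a collagen-binding α subunit typical of fibroblasts. Its log2 signal was 7.23, 6.74 and 6.86 in controls and 8.25, 7.39 and 7.64 after TGF-β1. The groups were separated, and here replicate 2 rather than replicate 3 was the lowest TGF-β1 array. The change was 0.81 or 1.76-fold (SE 0.24, 95% interval 0.23 to 1.40, limma adjusted p = 0.142). Relative to the background around it, the Itga11 spot was 4.30 to 6.60 times as bright on the control arrays and 7.10 to 12.2 times on the TGF-β1 arrays. Of 8 fibroblast markers, 3 (Pdgfrb, Lum and Col3a1) were well above background on no array. Of the 5 tested, Pdgfra (0.21), Dcn (1.00) and Thy1 (2.47) did not pass the adjusted limma threshold (adjusted p = 0.484, 0.273 and 0.176), and without TGF-β1 replicate 3 only Thy1 did. Col1a1 and Col1a2 were well above background on the TGF-β1 arrays and on no control array, so that they were tested only through the group in which they were high. The summed linear signal of the 8 markers was 577 to 647 in controls and 705 to 2699 after TGF-β1, and its part in the Itga11 result was not tested.

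The promoters of Itga2 and Itga11 are shown because these were the separated collagen receptor genes, and TGF-β signals reach DNA through Smad proteins, which bind the core motif CAGAC. The windows are the 250 bases before the annotated start, from RefSeq on GRCm38.p6, 5′ to 3′ on the strand of the gene. Capitals mark CAGAC or its reverse complement GTCTG. The Itga2 window is chr13:114932101-114932350 on the minus strand and the Itga11 window chr9:62677605-62677854 on the plus strand.
Itga2: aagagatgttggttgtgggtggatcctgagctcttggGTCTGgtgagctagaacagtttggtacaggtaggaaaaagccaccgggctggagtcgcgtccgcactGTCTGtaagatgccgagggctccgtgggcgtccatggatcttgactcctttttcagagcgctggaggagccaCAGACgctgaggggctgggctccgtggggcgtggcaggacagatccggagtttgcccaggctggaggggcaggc
Itga11: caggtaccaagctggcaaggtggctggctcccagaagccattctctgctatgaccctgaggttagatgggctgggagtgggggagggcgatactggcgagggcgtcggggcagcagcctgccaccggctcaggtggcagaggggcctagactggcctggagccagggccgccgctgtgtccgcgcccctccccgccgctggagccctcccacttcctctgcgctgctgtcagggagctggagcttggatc
The Itga2 window held 3 matches, which began 213, 146 and 74 bases before the start, and the Itga11 window held 0. Of 32851 windows of the same length, 42.2% held at least 1 match, so that a match is common and describes the letters only. Windows were found for 7 of the 10 genes, which did not include Itga6, Itga7 and Itgb4. Among genes that overlapped between groups, the Itgb7 window held 2 matches, that of Itga1 1, those of Itga3 0 and 1, and that of Itga10 0. The window of Itga9, a separated gene, held 0.

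Itga1 and Itga10, the other collagen-binding α subunits, overlapped between groups. The log2 signal of Itga1 was 5.63, 4.47 and 5.28 in controls and 5.72, 4.79 and 5.69 after TGF-β1. Replicate 2 was the lowest array in both groups, and the change of 0.27 had a 95% interval of -0.59 to 1.14 (limma adjusted p = 0.67). Itga10, known from cartilage, had log2 signals of 8.50, 8.94 and 9.18 in controls and 8.76, 8.95 and 9.06 after TGF-β1. All 3 TGF-β1 arrays lay within the range of the controls. The change was 0.05 (95% interval -0.40 to 0.50, limma adjusted p = 0.889), so that the interval included changes of up to 1.42-fold upward. A second Itga10 probe was well above background on no array, and a second Itga1 probe on 1 TGF-β1 array only. Of 4 chondrocyte markers 2 were tested. Sox9 rose by 1.20 (limma adjusted p = 0.0468). Col2a1, well above background on 1 control array and 3 TGF-β1 arrays, had 1.59 (limma adjusted p = 0.0935). Their part in the Itga10 value was not tested.

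Itga9, the α subunit for tenascin C and osteopontin, had log2 signals of 7.96, 8.09 and 7.39 in controls and 8.62, 9.03 and 8.20 after TGF-β1. The groups were separated, although the lowest TGF-β1 array, replicate 3, was only slightly above the highest control. The change was 0.80 or 1.75-fold (SE 0.26, 95% interval 0.18 to 1.43, limma adjusted p = 0.161). A second Itga9 probe had a change of 0.60, and on it the groups overlapped.

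Itgb7, the β subunit of leukocyte integrins, was dim, at 2.00 to 2.48 times the background around its spot. Its log2 signal was 3.80, 4.39 and 4.31 in controls and 4.01, 4.62 and 4.45 after TGF-β1. The groups overlapped, with a change of 0.19 (95% interval -0.33 to 0.71, limma adjusted p = 0.618). Of the α partners of β7, Itga4 was well above background on no array, and Itgae on 1 control array and no TGF-β1 array. Of 8 leukocyte markers, Ptprc, Lyz2 and Cd79a were well above background nowhere. Cd3e (change -0.24), Cd68 (0.90), Itgam (0.43) and Csf1r (0.01) were so on all 6 arrays, and 0 of them passed the adjusted limma threshold. The groups were separated upward for Cd68 and Itgam. The 8 together summed to 10581 to 12296 in linear signal in controls and 13572 to 14757 after TGF-β1. The part of such cells in the Itgb7 value was not tested.

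**Figure D2:**
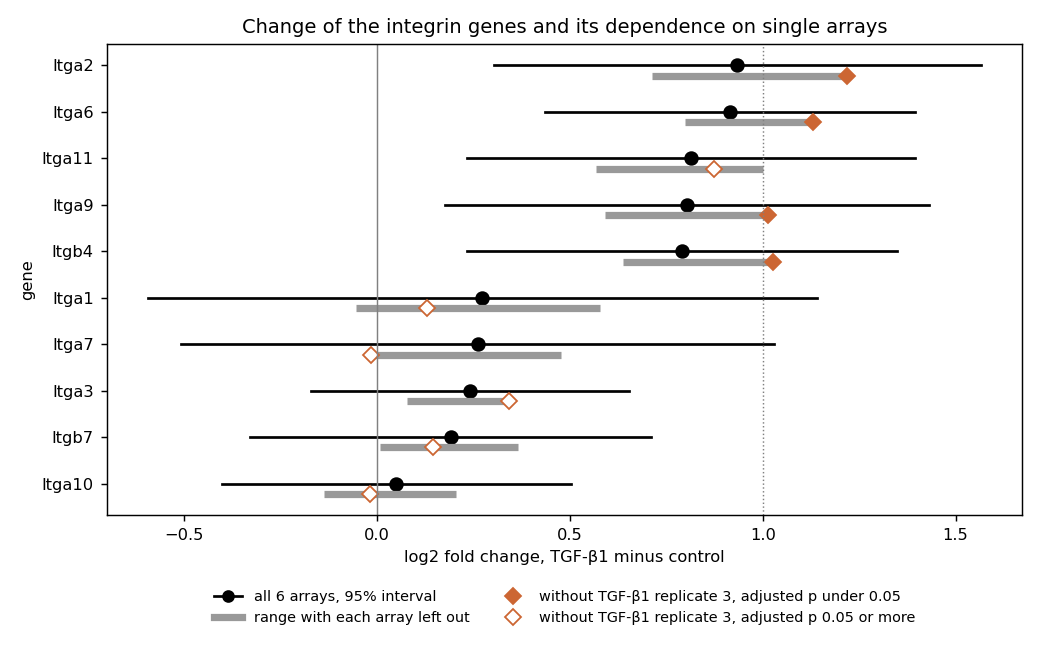
Log2 change (TGF-β1 minus control, horizontal axis) of each integrin gene with its 95% interval from limma over all 6 arrays, the range of the change with each array left out in turn (grey bar), and the change without TGF-β1 replicate 3 (diamond, filled where its adjusted p is under 0.05). The intervals of Itga2, Itga6, Itga9, Itga11 and Itgb4 lie above 0, and leaving out replicate 3 moves each of these 5 changes upward.

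The result for single genes depended on TGF-β1 replicate 3. In 4 of the 5 separated genes this array was the TGF-β1 array nearest the control mean, as it was in 74.6% of the 1641 genes that were higher at an unadjusted limma p under 0.05. Without it, Itga2 (1.22, adjusted p = 0.0135), Itga6 (1.13, adjusted p = 0.00813), Itga9 (1.01, adjusted p = 0.044) and Itgb4 (1.03, adjusted p = 0.0194) passed the adjusted limma threshold and a 2-fold change. Of all genes tested, 9.08% were higher and 6.27% lower at that adjusted threshold without this array, and 3.86% were 2-fold higher as well. With all 6 arrays 1.63% were higher, so that leaving out this array raised the count over all genes. Counts without it, here and for the lists, are therefore no independent support for a rise. Without this array Itga11 had 0.87 with an adjusted p of 0.0846, and the median change of the 10 genes was 0.61, beside -0.04 over all genes. Without any one of the other 5 arrays, 0 of the 10 genes passed. The share of all genes that passed in those 5 fits is not given here, so that this 0 has no base rate beside it.

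The arrays of replicate 3 of both groups lay in the second row of the slide and the other 4 in the first row, so that slide row and replicate 3 cannot be told apart. Between the arrays in row 1, 2 a group, the changes were 1.32 for Itga2, 1.22 for Itga6 and 1.17 for Itgb4. Between the lone arrays of row 2 they were 0.15, 0.32 and 0.03. Itga9 differed little between rows, at 0.80 in row 1 and 0.81 in row 2, as did Itga11 at 0.83 and 0.78. Itga3 had 0.42 in row 1 and -0.12 in row 2, Itga10 had 0.14 and -0.12, and Itgb7 had 0.22 and 0.14. The change was larger in row 2 for Itga7, at 0.11 in row 1 and 0.57 in row 2, and for Itga1, at 0.21 and 0.41.

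**Figure D3:**
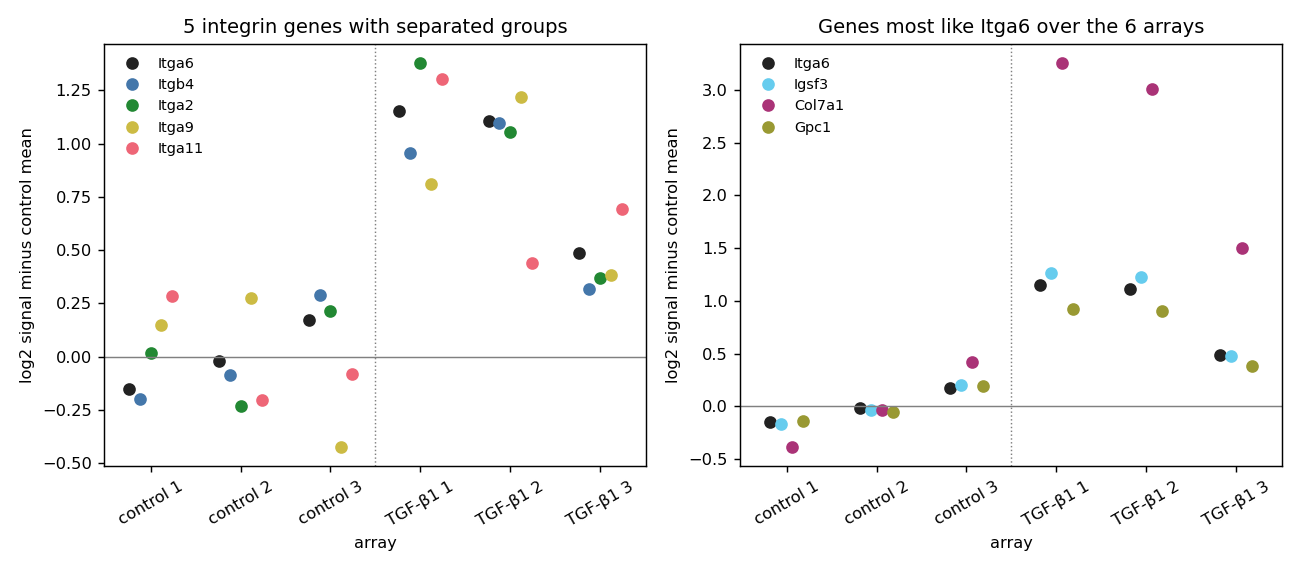
Log2 signal minus the control mean (vertical axis) on each of the 6 arrays, for the 5 separated integrin genes at left and for Itga6 and the 3 genes most like it at right, one point a gene and array. TGF-β1 replicate 3 lies between the controls and the other TGF-β1 arrays for Itga6 and the 3 genes beside it.

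The genes whose log2 signal followed that of Itga6 most closely over the 6 arrays were Igsf3 (Pearson r = 0.999), Col7a1 (0.9987) and Gpc1 (0.9976), among 2091 genes with a range of at least 1 that were well above background on all arrays. These coefficients describe 6 arrays that share the step between groups and the low TGF-β1 replicate 3, and carry no test. Igsf3, an immunoglobulin superfamily member, had a change of 0.99 (limma adjusted p = 0.092). Col7a1, the chain of the collagen of anchoring fibrils, rose by 2.59 (limma adjusted p = 0.0484). Gpc1, a cell-surface proteoglycan, had a change of 0.74 (limma adjusted p = 0.0987).

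The partner subunit of most of these α chains, Itgb1, had log2 signals of 15.71, 15.73 and 16.18 in controls and 16.58, 16.67 and 16.15 after TGF-β1. The groups overlapped, because TGF-β1 replicate 3 lay just under control replicate 3. The change was 0.59 (limma adjusted p = 0.16), or 0.75 (adjusted p = 0.0394) when TGF-β1 replicate 3 was left out.

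Genes of the proteins around these receptors were taken from lists that hold 81 distinct genes, of which 63 were tested. Of these 63, 7 rose and 0 fell at an adjusted limma p under 0.05, beside 1.63% and 0.404% of all genes. The 7 include Col1a1 and Col1a2, which no control array had well above background and which were tested only because the TGF-β1 arrays did. Of the 59 genes well above background on at least 1 control array, 5 rose and 0 fell. Without TGF-β1 replicate 3 these counts were 24 and 3, beside 9.08% and 6.27% of all genes. Of 9 hemidesmosome and tetraspanin partners, 8 had a change above 0 and 1 rose, with a list median of 0.85. Krt5 and Krt14 on this list are also basal cell markers. The gene that rose was Dst, whose epithelial product is a hemidesmosome plaque protein. Dst had log2 signals of 9.88, 9.87 and 9.90 in controls and 11.29, 11.23 and 10.54 after TGF-β1. TGF-β1 replicate 3 was again the lowest of the treated arrays, and the change was 1.14 (limma adjusted p = 0.0484). Without that array 6 of the 9 were higher at the adjusted threshold. Named after their values were seen, Plec, the plectin gene, had 0.85 (limma adjusted p = 0.126) and Col17a1, a transmembrane collagen of hemidesmosomes, had 2.13 (limma adjusted p = 0.167).

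Basal cells of the airway carry hemidesmosomes. All 5 basal cell markers listed (Krt5, Krt14, Trp63, Krt15 and Ngfr) were well above background on all 6 arrays, and 0 passed the adjusted limma threshold. Krt5 had a change of 1.37, Krt14 of 1.55, Ngfr of 1.36 and Trp63 of 0.18, whereas Krt15 had -1.06 (limma adjusted p = 0.353). The Krt15 signal was 14.14, 14.43 and 13.98 in controls and 14.07, 13.81 and 11.49 after TGF-β1, so that its low value came from TGF-β1 replicate 3. Without that array Krt15 had -0.24, and 3 of the 5 (Krt5, Krt14 and Ngfr) were higher at the adjusted limma threshold. The summed linear signal of the 5 markers was 44456 to 60723 in controls and 56658 to 148505 after TGF-β1. TGF-β1 replicate 3, which was also the lowest treated array for Itga6 and Itgb4, had the lowest sum of its group and lay within the range of the controls. The part of the share of basal cells in the integrin values was not tested.

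Of 22 integrin-linked cytoplasmic proteins tested, 2 rose and 0 fell, with a median change of 0.12. Without TGF-β1 replicate 3, 5 were higher and 3 lower at the adjusted limma threshold, the lower ones being Parva (-0.58), Tns2 (-0.82) and Itgb1bp1 (-0.84). Fermt1, which encodes the epithelial kindlin that activates integrins, rose by 1.54 (limma adjusted p = 0.0242). Tns1, a tensin that links integrin tails to actin, rose by 1.27 (limma adjusted p = 0.0403). Fermt3, Parvb and Parvg were well above background on no array. Of 4 non-integrin receptors of laminin and collagen tested, 0 passed, or 1 without TGF-β1 replicate 3, and the median was -0.0057. Ddr1, a collagen-binding tyrosine kinase, had 0.48 (limma adjusted p = 0.198) and Rpsa, a ribosomal protein also described as a laminin receptor, had -0.19.

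Among the ligands, 0 of 8 laminin chains tested passed, with a median of 0.63, and without TGF-β1 replicate 3 the count was 4. The largest changes were those of Lamb1 at 1.44 (limma adjusted p = 0.0935) and Lama1 at 1.34 (limma adjusted p = 0.161). Of 18 collagen chains listed, 11 were tested. Of these, 4 (Col1a1, Col1a2, Col4a1 and Col4a2) were well above background on every TGF-β1 array and on no control array, so that the filter fixed their direction. Their folds are lower bounds, taken against the signal at which probes become well above background. Col1a1 was at least 2.16-fold higher (limma adjusted p = 0.0131), Col1a2 at least 2.38-fold (limma adjusted p = 0.0162), Col4a1 at least 2.17-fold (limma adjusted p = 0.111) and Col4a2 at least 1.92-fold (limma adjusted p = 0.128). The other 7 had changes of 0.30 to 1.40 with a median of 0.64, and 0 of them passed, or 3 without TGF-β1 replicate 3.

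Of 5 ligands of α9 tested, 1 rose, or 2 without TGF-β1 replicate 3. The gene that rose was Spp1, which encodes osteopontin and had log2 signals of 7.39, 7.76 and 7.78 in controls and 11.53, 10.77 and 9.68 after TGF-β1. The groups were far apart, with TGF-β1 replicate 3 the lowest treated array, and the change was 3.01 (limma adjusted p = 0.0226). Tnc, the tenascin C gene, named after its values were seen, had 2.42 (limma adjusted p = 0.118). Of 3 ligands of β7 integrins tested, 1 rose, or 2 without TGF-β1 replicate 3. The gene that rose was Fn1, the fibronectin gene, at 2.22 (limma adjusted p = 0.0279).

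**Figure D4:**
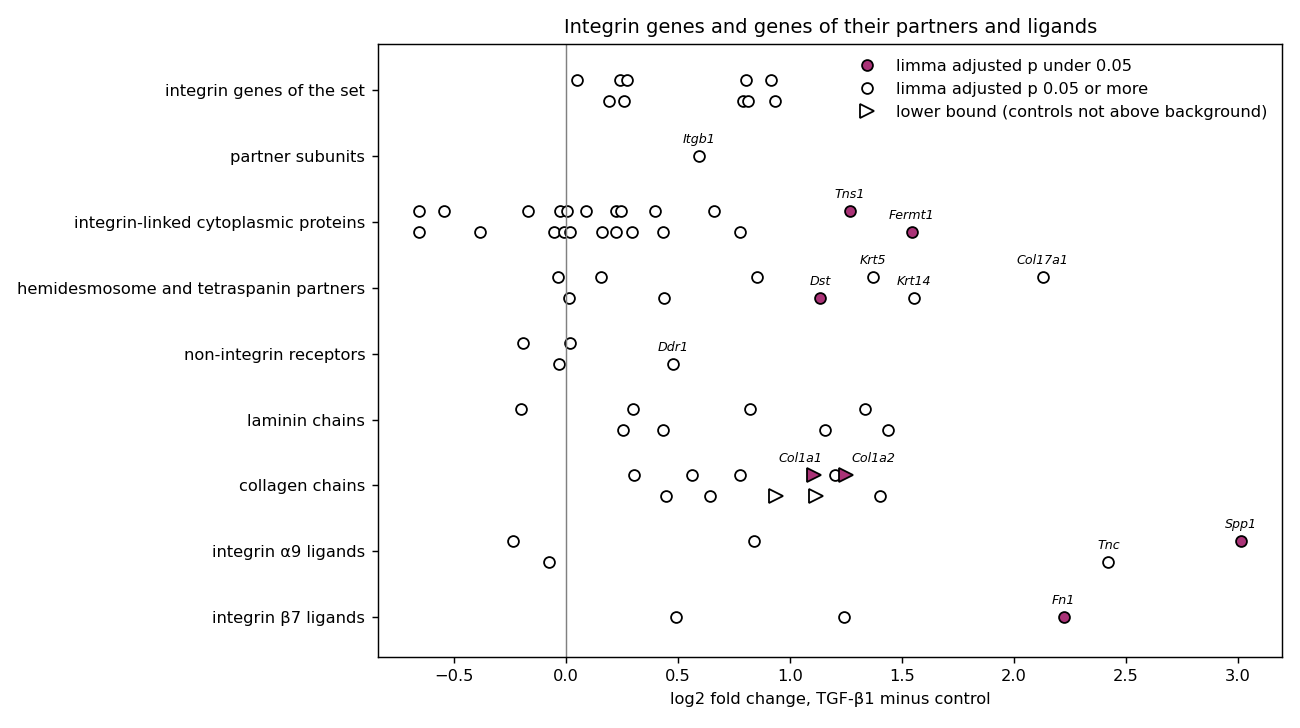
Log2 change (TGF-β1 minus control, horizontal axis) of each gene tested in the integrin set and in the lists of partners, receptors and ligands, one point a gene, filled where the limma adjusted p is under 0.05, with triangles at the lower bound for genes that no control array had well above background. No point of the integrin set is filled, and each filled point lies above 0.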

How the data were processed

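Total RNA of 6 cultures, 3 with TGF-β1 and 3 controls, was labelled with Cy3 and hybridised to 1 array each. The deposited files hold the linear intensity of each of 62976 spots after background subtraction by Agilent Feature Extraction 11.0.1.1, and no normalization between arrays, which the authors applied to log2 values by quantiles. Here spots marked as uneven or as outliers were left out (74 to 112 an array), log2 values of a probe's spots were averaged and 56599 probes were normalized by quantiles. No spot was saturated. A probe was kept if 3 of 6 arrays or more had it well above background, and RefSeq accessions were matched to symbols (32991 of 35883 matched). Of 17 integrin probes 14 passed, and 10 of 10 genes. The probe with the highest mean signal stood for a gene, and levels were not compared between probes. Groups were compared with limma 3.58.1 in R 4.3.3 on group alone, with Benjamini-Hochberg adjustment over 14345 genes, and single values with two-sided exact permutation tests. The analysis was tested on simulated data. The number of arrays limits the precision.

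The genes, lists and tests were chosen with earlier results of these data known, so that they are not independent of them. All 10 genes were named whatever their result. From each list of partners, receptors and ligands the text names the genes with an adjusted p under 0.05, up to 4, or otherwise those with the 2 largest changes. The lists of cell type markers did not follow this rule, and not all of them are described. Other list genes and markers were named after their values were seen. For likeness it names the 3 genes with the highest Pearson r. Other settings tried were normexp background (offset 50), scaling by the 75th percentile, other filters and probe rules, other variance priors and array weights, the methods' t-test, unadjusted p, a replicate block and each array left out. Slide row as a block was added after the data were seen.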

Additional observations from a re-analysis of the deposited data

How the results depend on the processing

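All 5 separated genes (Itga2, Itga6, Itga9, Itga11 and Itgb4) kept a change above 0 under each of the 19 alternatives, from 0.53 to 1.22. For separated groups the sign could turn only under normexp background, percentile scaling or another probe rule. Under the other alternatives it was fixed in advance. The count of integrin genes that passed the adjusted limma p, 0 of 10, became 1 with normexp background (Itga6, adjusted p = 0.0423, beside 2.42% of all genes higher), 1 with a trended and robust prior (Itga6, adjusted p = 0.0342, beside 2.78%) and 1 with slide row as a block (Itga9, adjusted p = 0.048, beside 2.02%), which was added after the data were seen. It became 5 with array weights, beside 16.8% of all genes, and 3 of the 5 were 2-fold higher, beside 4.14%. Without adjustment it was 5 by limma and 3 by the methods' t-test. With each array left out in turn it ranged from 0 to 4, also with a 2-fold change, and was 4 only without TGF-β1 replicate 3, which array weights gave the lowest weight (0.297). Of these fits, the share of all genes that passed is given only for the fit without TGF-β1 replicate 3. The median change, 0.53 in the main setting, was 0.40 with normexp background and 0.40 with the dimmest probe of each gene. It was 0.79 over the 9 genes well above background on all arrays, and 0.47 to 0.61 with an array left out.

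Changes near 0 turned sign. Normexp background gave -0.056 for Itga10 and -0.034 for Itgb7, and the dimmer probe gave -0.11 for Itga3. With an array left out, Itga1 ranged from -0.055 to 0.58, Itga7 from -0.019 to 0.48 and Itga10 from -0.14 to 0.20. Without TGF-β1 replicate 3, Itga7 had -0.015 and Itga10 -0.017. The cause was not tested.

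Deviations of same-numbered arrays correlated by -0.0079, 0.33 and -0.047. With 3 arrays a group, these values cannot decide whether the replicate numbers pair the cultures. With a replicate block 0 integrin genes passed the adjusted limma p, as without it (Itga9 0.0734, Itga11 0.0799), and the count over all genes went from 292 to 103. Not every array correlated best with its own number.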
